A study of Mus musculus with 2 samples.

Results

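The miR-200 family and the miR-183 cluster comprise 8 miRNA hairpins that are transcribed from 3 polycistrons, and their reads were followed in small RNA libraries of fetal mouse testes. The members were taken by name. A sequence of 16 nt or more was assigned to a member when it lay exactly, on the sense strand, inside the GENCODE M21 miRNA transcript of that name. The 8 hairpins belong to 2201 annotated miRNA gene names, of which 1078 had reads in WT and 1073 in KO. The WT library came from 20 whole testes of C57BL/6 fetuses, pooled, at E16.5. The KO library came from the same number of testes of Hsp90-alpha KO fetuses of that strain and age, and fetuses were obtained by natural mating. Neither genotype has a replicate library, so every interval given here covers the counting of reads only, and reads without molecular identifiers are not independent molecules. HSP90α (gene Hsp90aa1) is a chaperone that helps client proteins to fold and mature, and no cell type of the testis was sorted.

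The WT library held 6409305 reads and the KO library 5589326, of which 2523084 and 2561491 matched a miRNA hairpin. Levels are given as reads per 1000000 hairpin-matching reads (RPM), and 3 reads correspond to 1.19 RPM in WT and 1.17 in KO. Sense fragments of Hsp90aa1 of at least 20 nt that lay in no other gene numbered 2 in WT and 10 in KO. The position of the deletion is not given in the sources used here, so these few fragments do not check the labels.

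A miRNA hairpin is cut by Drosha and Dicer into a 5p and a 3p arm, and the retained arm recognizes its targets mainly through the seed, bases 2 to 8 from its 5′ end. The miR-200 family is typical of epithelial cells, in which it represses the transcription factors Zeb1 and Zeb2 and so holds back the transition to mesenchyme. The miR-183 cluster is best known from sensory cells such as hair cells and photoreceptors. The RefSeq mature sequence of the more abundant arm of each hairpin (GRCm38.p6) is shown here with the seed in capitals, because the seed divides the family into groups.
miR-200b-3p: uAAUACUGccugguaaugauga
miR-429-3p: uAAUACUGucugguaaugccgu
miR-200c-3p: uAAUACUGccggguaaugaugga
miR-200a-3p: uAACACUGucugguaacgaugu
miR-141-3p: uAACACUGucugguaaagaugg
miR-183-5p: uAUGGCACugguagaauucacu
miR-96-5p: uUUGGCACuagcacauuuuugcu
miR-182-5p: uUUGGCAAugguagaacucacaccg

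With positions counted from 1 at the 5′ end, the seeds of miR-200b-3p and miR-200a-3p differ by U4C alone. miR-200b-3p, miR-429-3p and miR-200c-3p share a seed, as do miR-200a-3p and miR-141-3p. In the other cluster the seeds of miR-183-5p and miR-96-5p differ by A2U, those of miR-96-5p and miR-182-5p by C8A, and miR-183-5p and miR-182-5p are identical at 18 of 22 compared bases. The similarity did not mix their reads, since 0 sequences of the members lay in any other hairpin gene.

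All 3 polycistrons lie on the minus strand. Mir200b (GRCm38 chromosome 4, 156055681 to 156055750), Mir200a (156054896 to 156054985) and Mir429 (156053905 to 156053987) span 1846 nt. They lie inside introns of the protein-coding gene Ttll10 and within the noncoding gene Gm13648, an exon of which overlaps Mir429. Mir200c (chromosome 6, 124718322 to 124718390) and Mir141 (124717914 to 124717985) span 477 nt within the noncoding gene Gm15884, and Mir141 also overlaps an exon of Gm29008. Mir183 (chromosome 6, 30169668 to 30169737), Mir96 (30169446 to 30169551) and Mir182 (30165918 to 30165992) overlap no other annotated gene. Only 116 nt separate Mir183 from Mir96, whereas Mir182 lies 3453 nt farther downstream.

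The 8 hairpins together held 18308 reads in WT and 19221 in KO, or 0.726% (95% Wilson interval 0.715 to 0.736) and 0.750% (0.740 to 0.761) of the hairpin-matching reads. Nearly all came from the miR-183 cluster, which held 98.2% of them in WT and 98.5% in KO. Its reads were 58.7 times those of the Mir200b-Mir200a-Mir429 polycistron in WT (95% Clopper-Pearson interval 52.5 to 66.0) and 75.7 times in KO (66.8 to 86.1). The Mir200c-Mir141 polycistron was lower still, with the Mir200b-Mir200a-Mir429 reads at 10.9 times its own in WT (7.41 to 16.7) and 6.10 times in KO (4.37 to 8.70). The reads of the miR-200 family came mainly from the chromosome 4 locus. Each read is 1 end-to-end RNA and needs no correction for length, but ligation of the adaptors can favour some ends, which was not measured here.

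**Figure D1:**
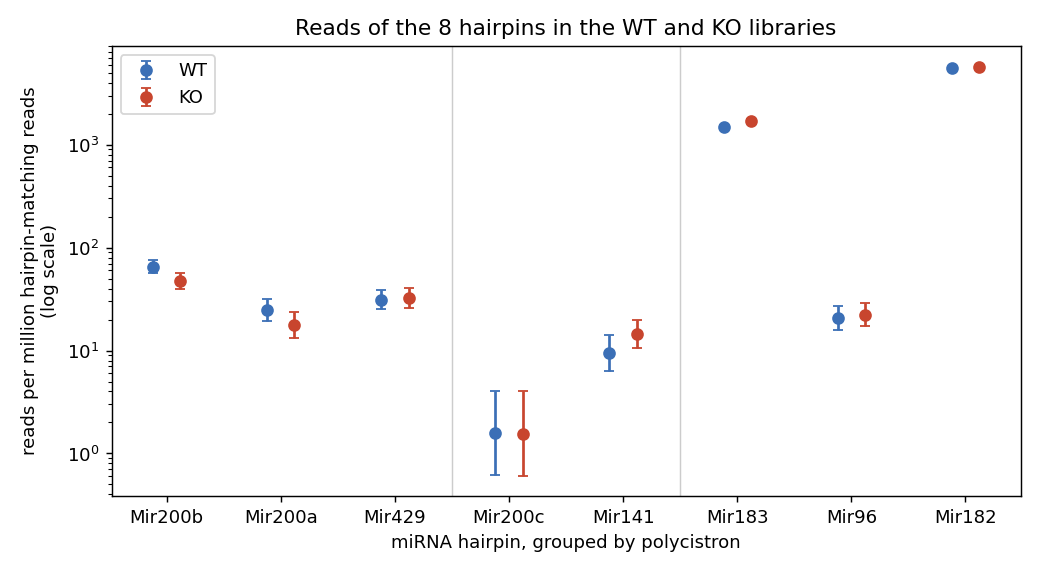
RPM (log scale) of the 8 hairpins, grouped by polycistron, in the WT (blue) and KO (red) library. Points are single libraries and bars are 95% Wilson intervals of the counting. Mir182 and Mir183 lie at or above 1498 RPM in both libraries, and the other 6 hairpins at or below 65.4.

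In the miR-183 cluster Mir182 was the main product, with 14143 reads in WT and 14507 in KO, or 5605 and 5664 RPM (intervals 5514 to 5698 and 5572 to 5756). Mir183 had 3779 and 4366 reads, or 1498 (1451 to 1546) and 1704 (1655 to 1756) RPM. Mir96 had only 52 and 57 reads, or 20.6 (15.7 to 27.0) and 22.3 (17.2 to 28.8) RPM. The hairpins of this polycistron thus differed widely in reads, Mir183 exceeding its close neighbour Mir96 72.7 times in WT (55.3 to 97.5) and 76.6 times in KO (59.0 to 101.3). Mir182 exceeded Mir183 by 3.74 times in WT (3.61 to 3.88) and 3.32 times in KO (3.21 to 3.44).

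The chromosome 4 hairpins were closer to each other. Mir200b had 165 reads in WT and 122 in KO, or 65.4 (56.2 to 76.2) and 47.6 (39.9 to 56.9) RPM. Mir429 had 79 and 83 reads, or 31.3 (25.1 to 39.0) and 32.4 (26.1 to 40.2) RPM. For Mir200a 62 and 45 reads were found, or 24.6 (19.2 to 31.5) and 17.6 (13.1 to 23.5) RPM. Mir200b led in both libraries, and the intervals of Mir429 and Mir200a overlapped in WT but not in KO.

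On chromosome 6, Mir141 had 24 reads in WT and 37 in KO, or 9.51 (6.39 to 14.2) and 14.4 (10.5 to 19.9) RPM, and Mir200c had 4 reads in each library. The order of levels was Mir182, Mir183 and Mir200b in both libraries. Behind these, the intervals of Mir429, Mir200a and Mir96 overlapped in WT. In KO the order was Mir429, Mir96, Mir200a and Mir141, and each interval overlapped that of the next. Summed by seed, the more abundant arms of Mir200b, Mir429 and Mir200c gave 242 reads in WT and 209 in KO, and those of Mir200a and Mir141 gave 78 and 76.

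The comparison of the libraries asks whether the members differ between KO and WT testes. The KO/WT ratio of levels was 0.805 (95% Clopper-Pearson interval 0.678 to 0.954) for the Mir200b-Mir200a-Mir429 polycistron, 1.44 (0.871 to 2.42) for Mir200c-Mir141 and 1.04 (1.02 to 1.06) for Mir183-Mir96-Mir182. The chromosome 4 polycistron was thus lower in the KO library by more than the counting error with this total. Its interval held 1 with reads of all lengths as the total (0.937, 0.789 to 1.11), of which 39.4% in WT and 45.8% in KO matched hairpins. It also held 1 with the median hairpin ratio set to 1 (0.934, 0.787 to 1.11). That median is over 458 hairpins, of which 266 had most of their reads in several hairpin genes. With the median over reads inside 1 hairpin gene only set to 1, the interval lay below 1 (0.821, 0.691 to 0.973). This last alternative was chosen after seeing the data. The miR-183 cluster was higher by a few percent, and the low reads of Mir200c-Mir141 left its ratio undetermined.

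Among the single hairpins, the ratio was 0.728 (0.572 to 0.926) for Mir200b and 0.715 (0.476 to 1.07) for Mir200a, while for Mir429, from the same polycistron, it was 1.03 (0.751 to 1.43). It was 0.985 (0.183 to 5.29) for Mir200c and 1.52 (0.885 to 2.65) for Mir141. In the miR-183 cluster it was 1.14 (1.09 to 1.19) for Mir183, 1.08 (0.728 to 1.60) for Mir96 and 1.01 (0.987 to 1.03) for Mir182. The interval lay below 1 for Mir200b, above 1 for Mir183, and held 1 for the other 6 hairpins. That of Mir200b also held 1 with reads of all lengths as the total (0.848, 0.665 to 1.08). By seed, the ratio was 0.851 (0.704 to 1.03) for the Mir200b, Mir429 and Mir200c group and 0.960 (0.690 to 1.33) for the Mir200a and Mir141 group.

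**Figure D2:**
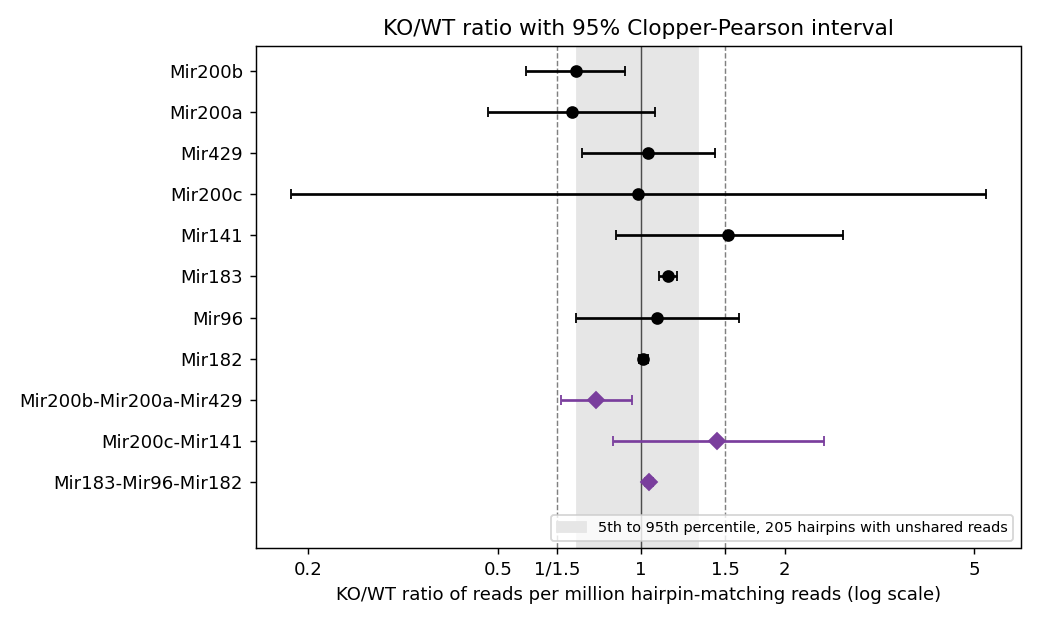
KO/WT ratio of RPM (log scale) for the 8 hairpins (circles) and the 3 polycistrons (diamonds), with 95% Clopper-Pearson intervals. Dashed lines mark a 1.5-fold difference and the grey band the 5th to 95th percentile (0.731 to 1.31) of 205 hairpins with at least 100 unshared reads. Mir200b and Mir200a lie just below the band.

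With 1 library per genotype a fixed fold of 1.5 was used in place of a test. Of the 8 hairpins, 0 were lower and 1, Mir141, was higher in KO by at least this fold, and its interval held 1. Of the 6 hairpins whose WT and KO reads summed to at least 100, 0 were lower and 0 higher. Among all 458 hairpins with such a sum, 40.0% were lower by the fold and 0% higher. This share rests largely on reads that lie in several hairpin genes and count for each. Such reads made up most of the total for 179 of the 183 lower hairpins, against 266 of all 458. Members share no reads, and over the 205 hairpins with at least 100 reads of their own 1.95% were lower and 0% higher. The median ratio was 0.862 over the 458 hairpins and 0.981 over the 205, and over the 8 members it was 1.02. Of these 205 hairpins, 4.39% had a lower ratio than Mir200b, 3.90% a lower ratio than Mir200a, and 83.4% a lower ratio than Mir183.

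Differences between members do not depend on the normalizing total, and were tested on the reads of these libraries with Fisher's exact test. These tests compare the libraries and not the genotypes. Their p covers the counting of reads only and not the spread of ratios between hairpins. The 5th to 95th percentile of that spread was 0.731 to 1.31 over the 205 hairpins with at least 100 reads of their own. The ratio of Mir182 was 0.888 times that of Mir183 (exact interval 0.845 to 0.933, adjusted p = 1.62e-05 over 7 pairs within polycistrons, Fisher's exact test), so the share of Mir183 in the reads of its cluster was 21.0% in WT (20.4 to 21.6) and 23.1% in KO (22.5 to 23.7). For the remaining 6 pairs the adjusted p lay at 0.269 or above, and the interval of the quotient was 0.947 to 2.13 for Mir429 over Mir200b and 0.609 to 1.57 for Mir200a over Mir200b. Between polycistrons, the ratio of Mir183-Mir96-Mir182 was 1.29 times that of Mir200b-Mir200a-Mir429 (1.09 to 1.53, adjusted p = 0.00950 over 3 pairs, Fisher's exact test). Mir200c-Mir141 stood at 1.79 times the ratio of the other miR-200 polycistron (1.05 to 3.10, adjusted p = 0.0437, Fisher's exact test), on 28 and 41 reads.

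Whole testes hold several cell types, and fewer cells of a type cannot be told apart from less RNA per cell. Of 47 marker miRNAs in 7 lists, 24 reached 100 reads, of which 1 was lower by the fold and 0 higher. Over all hairpins, 40.0% of 458 were lower, or 1.95% of the 205 with at least 100 reads of their own, and 0% higher. Some of the 24, such as Mir199a-1 and Mir199a-2, have most of their reads in several hairpin genes. Other miRNAs listed as epithelial (12 of 13 were read) summed to 1682 RPM in WT and 1659 in KO, a ratio of 0.986 (0.945 to 1.03). Most of this sum came from Mir192, with 2303 and 2277 reads (0.974, 0.919 to 1.03), and Mir34c, with 1353 and 1442 (1.05, 0.974 to 1.13). Which cells of the testis these reads came from was not measured, so the sum is not a level of epithelial cells. Among the 7 miRNAs of this list with at least 100 reads, 0 passed the fold in either direction and the median ratio was 0.974. The interval lay below 1 for Mir375, with 28 and 13 reads and a ratio of 0.457 (0.217 to 0.912), and above 1 for Mir215, with 5 and 15 reads and a ratio of 2.96 (1.02 to 10.4). Germ cell miRNAs of the miR-290 and miR-302 clusters (9 of 13 read) summed to 647 and 867 RPM, a ratio of 1.34 (1.26 to 1.43). Most of this sum came from Mir295, with 1045 and 1428 reads (1.35, 1.24 to 1.46), and each miR-302 hairpin had at most 2 reads per library. The interval also lay above 1 for Mir291a (1.48, 1.22 to 1.80) and Mir293 (1.39, 1.15 to 1.68). It held 1 for Mir294 (1.15, 0.941 to 1.41), Mir290a and Mir291b. The listed Mir292a is named Mir292 in the annotation and is not in this sum. Its 394 and 443 reads, added after the data were seen, make the ratio 1.30 (1.22 to 1.37). Mir302c and Mir367 had 0 reads in both libraries. Blood miRNAs (4 of 4 read) summed to 757 and 615 RPM, a ratio of 0.812 (0.759 to 0.869), with Mir144, an erythroid miRNA, at 0.575 (0.418 to 0.786) as the lower one. Those of gonadal support cells, among them Mir202 of Sertoli cells with 5037 and 5466 reads, summed to 2804 and 2982 RPM, a ratio of 1.06 (1.03 to 1.10). For mesenchyme, at 61573 and 62784 RPM, the ratio was 1.02 (1.01 to 1.03), but its members differed, with Mir143 at 0.811 (0.803 to 0.819) and Mir199a-1 at 1.32 (1.31 to 1.34). The ratio was 1.0 (0.979 to 1.03) for the endothelial Mir126a. For neuronal and sensory miRNAs (5 of 8 read), which had 83 and 76 reads, it was 0.902 (0.652 to 1.246). The listed Mir124-1, Mir124-2 and Mir124-3 are not in the annotation under these names and are not in this sum. The part of these cell types in the ratios of the members was not tested.

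Arm use separated the families. The miR-200 hairpins were read mainly from the 3p arm, which held 97.6% of Mir200b reads in WT (95% Wilson interval 93.9 to 99.1) and 100% in KO (96.9 to 100). The 3p share was lower for Mir200a, at 88.7% in WT (78.5 to 94.4) and 93.3% in KO (82.1 to 97.7), and for Mir141 it was 95.8% and 91.9%. The miR-183 cluster was read from the 5p arm, which held 99.8% of Mir183 reads and over 99.9% of Mir182 reads in each library, and all 52 and 57 reads of Mir96. The opposite arm gave 3 and 0 reads for Mir200b, 2 and 3 for Mir200a, 1 and 2 for Mir141, and 7 and 8 for Mir183 in WT and KO. None was read from it for Mir429, Mir200c, Mir96 and Mir182. A count of 0 allows up to 3 reads, or 1.19 RPM in WT and 1.17 in KO. In the 4 hairpins with reads of both arms the adjusted p of a difference in KO/WT between arms was 1 (Fisher's exact test), with intervals too wide to tell.

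A few reads came from neither arm, and most of these were the terminal loop itself. A loop read is shown for each hairpin that had one spanning exactly the gap from the last base of the RefSeq 5p arm to the first base of the 3p arm.
Mir200a loop: tttcttggcttgactc
Mir429 loop: tctggatgcatctgtc
Mir141 loop: tggttgaagtatgaagctcc
Mir182 loop: gtaaggtaatgggacccg

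The Mir200a loop was read 5 times in WT and 0 times in KO, that of Mir429 2 and 0 times, that of Mir141 0 and 1 times, and that of Mir182 1 time in each library. Hence 4 of the 5 sequences found outside the arms were loops cut at both arm ends, with 8 reads in WT and 2 in KO. Over all hairpins with RefSeq sequences for both arms and reads of their own, loops cut at both ends made up 46.5% of 426 reads outside the arms in WT and 44.5% of 463 in KO. They came from 24 genes in WT and 21 in KO.

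The 5′ end, which sets the seed, was uniform by exact reads in most members and split in miR-183-5p. Reads of the more abundant arm began at the RefSeq 5′ end in 99.8% of miR-182-5p reads in WT and in KO, and in 100% of miR-200a-3p, miR-429-3p and miR-96-5p reads. For miR-200b-3p 160 of 161 exact WT reads and 122 of 122 exact KO reads did so. Its reads ending in 1 untemplated T, counted apart, were less uniform. From the RefSeq start the main such form had 51 reads in WT and 42 in KO, and from 1 base downstream 7 and 2. For miR-183-5p the share was 63.7% in WT (62.1 to 65.2) and 64.8% in KO (63.4 to 66.3). Another 1331 WT reads (35.3%) and 1471 KO reads (33.8%) began exactly 1 base downstream. Among 171 arms with at least 100 reads of their own in each library, the median share at the RefSeq end was 98.4% in WT and 98.2% in KO. Only 7 arms in WT and 9 in KO had a larger share starting 1 base downstream than miR-183-5p. The most-read sequence of each start is shown, since the shift changes bases 2 to 8 (capitals).
miR-183-5p, RefSeq start: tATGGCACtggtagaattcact
miR-183-5p, 1 base downstream: aTGGCACTggtagaattcactg

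The shifted seed, UGGCACU, is found in miR-96-5p at positions 3 to 9, and does not occur in miR-182-5p. With 1331 and 1471 reads, the shifted form of miR-183-5p alone outnumbered miR-96-5p, which had 52 and 57. Its KO/WT ratio was 1.09 (1.01 to 1.17) against 1.16 (1.10 to 1.22) for reads at the RefSeq start. The odds of the shifted start were 0.939 times as high in KO as in WT (exact interval 0.856 to 1.03, p = 0.181, Fisher's exact test), a comparison chosen after the data were seen.

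**Figure D3:**
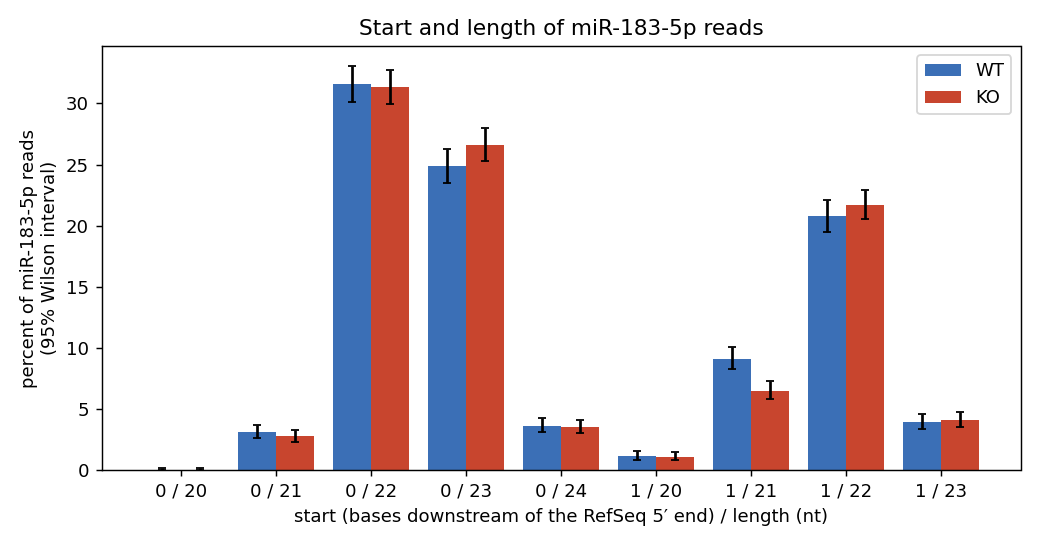
Percent of miR-183-5p reads with each start (0 or 1 base downstream of the RefSeq 5′ end) and length, in the WT (3772 reads, blue) and KO (4358 reads, red) library, with 95% Wilson intervals. The most frequent length is 22 nt for either start, and only for the 21-nt form with the shifted start do the WT (9.12%) and KO (6.52%) intervals not overlap.

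Both starts had 22 nt as their most frequent length, so the end moved with the start. From the RefSeq start, the 22-nt form had 1190 reads in WT and 1366 in KO and the 23-nt form 938 and 1160. From the shifted start, the 22-nt form had 783 and 946 reads and the 21-nt form 344 and 284. The ratio was 1.13 (1.05 to 1.22), 1.22 (1.12 to 1.33), 1.19 (1.08 to 1.31) and 0.813 (0.692 to 0.954) in this order. Of the miR-183-5p forms with at least 30 reads, the shifted 21-nt form was the only one whose interval lay below 1. A 16-nt fragment starting 7 bases downstream had 22 reads in WT and 43 in KO, a ratio of 1.93 (1.13 to 3.38).

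The members also differed in length. miR-182-5p was long for a miRNA, with 24 nt as its most frequent length, whereas miR-183-5p peaked at 22 nt, miR-200b-3p and miR-96-5p at 23 nt, and miR-429-3p and miR-141-3p at 21 nt. The most-read sequence equalled the RefSeq mature sequence in both libraries for miR-183-5p and miR-96-5p. The most-read forms that differed from it in both libraries are shown, with the seed in capitals.
miR-182-5p, 24 nt: tTTGGCAAtggtagaactcacacc
miR-200b-3p, 23 nt: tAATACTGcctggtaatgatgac
miR-429-3p, 21 nt: tAATACTGtctggtaatgccg
miR-141-3p, 21 nt: tAACACTGtctggtaaagatg

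The 24-nt form of miR-182-5p, 1 base shorter than RefSeq, had 8209 of 14142 reads in WT (58.0%) and 8607 of 14506 in KO (59.3%). The 25-nt RefSeq form had 2690 and 2768 reads and the 23-nt form 2283 and 2144. Their ratios were 1.03 (1.0 to 1.06), 1.01 (0.961 to 1.07) and 0.925 (0.872 to 0.982). miR-200b-3p carried 1 more templated base than RefSeq in 149 of 161 WT reads (92.5%) and 109 of 122 KO reads (89.3%), and the RefSeq form had 8 and 9 reads. miR-141-3p was 1 base shorter than RefSeq in 21 of 23 and 28 of 34 reads. For miR-200a-3p the 23-nt form led in WT with 19 of 55 reads and the 22-nt form in KO with 17 of 42, and their shares (34.5%, 23.4 to 47.7, and 40.5%, 27.0 to 55.5) were too imprecise to separate the libraries.

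**Figure D4:**
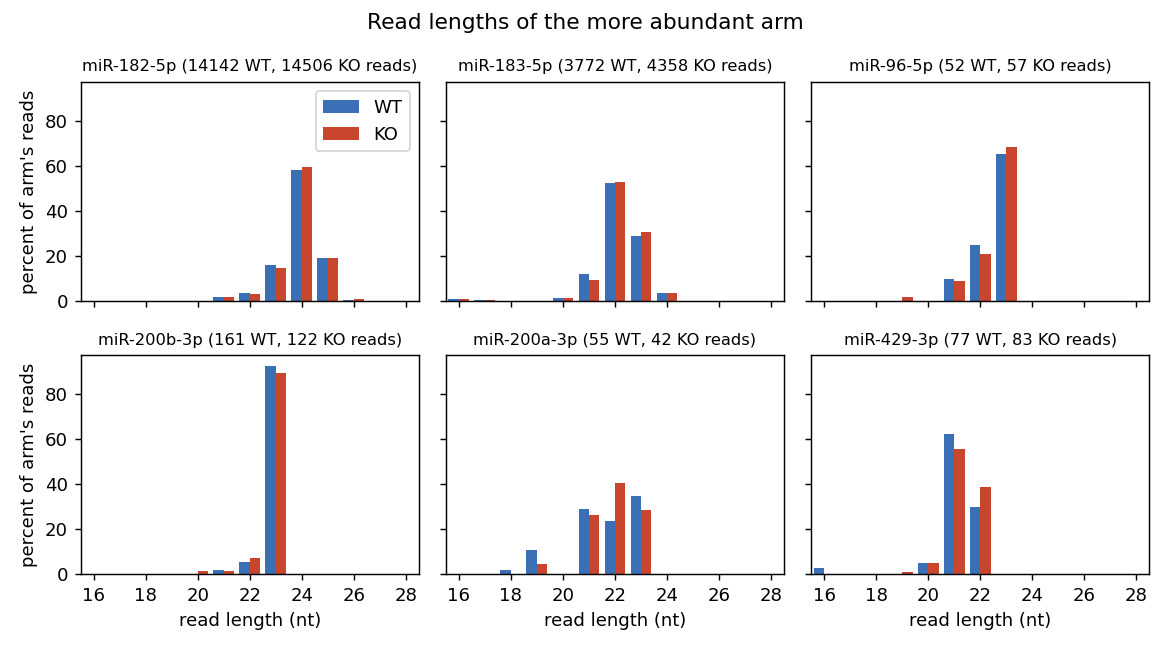
Percent of reads of the more abundant arm at each length (nt) for 6 members in the WT (blue) and KO (red) library, with the number of reads in each panel title. miR-182-5p peaks at 24 nt and the other 5 arms at 21 to 23 nt.

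Because of its length, Mir182 falls into the 24 to 33 nt window in which fetal piRNAs are counted. The authors mapped reads to miRNA sequences first and took only the unmapped ones on to the genome and transposons. Exact Mir182 reads would thus not enter their piRNA counts. In that window lay 77.9% of its reads in WT (77.2 to 78.6) and 79.5% in KO (78.9 to 80.2), against 7.82% and 7.84% of all hairpin-matching reads. Of the 171 arms, only 4 in WT and 3 in KO had a larger share of reads of 24 nt or more than miR-182-5p. Mir182 ranked 5th among hairpins by reads of this length and supplied 5.58% of them in WT and 5.75% in KO. The KO/WT ratio of its reads in the window was 1.03 (1.0 to 1.06), and the reads of the same lengths outside all hairpins, which include piRNAs and fragments of structural RNAs, had 0.638 (0.637 to 0.640). At matched lengths the values lay closer. At 23 nt the order was reversed, with 0.925 (0.871 to 0.981) for Mir182 and 0.968 (0.963 to 0.974) for reads outside hairpins. At 24 nt they were 1.03 (1.0 to 1.06) for miR-182-5p and 0.941 (0.935 to 0.946) for reads outside hairpins, and at 25 nt 1.01 (0.961 to 1.07) and 0.833 (0.827 to 0.840).

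Reads that matched a hairpin exactly for at least 18 nt and then ended in 1 to 3 other bases were counted apart, since they are not among the members' exact reads. Such tailing of the 3′ end by adenine or uracil is a common change of mature miRNAs. Tailed reads made up 28.3% of exact and tailed Mir200b reads in WT (22.8 to 34.4) and 31.5% in KO (25.1 to 38.6). For Mir182 they made up 22.9% (22.3 to 23.5) and 23.7% (23.1 to 24.4), and for Mir183 15.9% (14.8 to 17.0) and 16.1% (15.1 to 17.1). Over all hairpins the share was 11.9% in WT and 11.8% in KO. This share is pooled over reads, and Mir10b alone held 1410287 of the 2523084 exact reads in WT and 1415066 of 2561491 in KO. A median over hairpins was not computed, so the members are not placed against a typical hairpin. The main tailed forms of these members are shown with the untemplated base in capitals, as the added base differed between them.
miR-200b-3p, tailed: taatactgcctggtaatgatgacT
miR-183-5p, tailed: tatggcactggtagaattcactgA
miR-182-5p, tailed with T: tttggcaatggtagaactcacaccgT
miR-182-5p, tailed with A: tttggcaatggtagaactcacaccgA

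A single uracil (T in the reads) made up 89.2% of Mir200b tails in WT and 78.6% in KO, and a single adenine 6.15% and 8.93%. In Mir183 a single adenine made up 85.1% and 81.1% and a single uracil 1.40% and 2.03%. Mir182, from the same polycistron as Mir183, had 44.9% and 47.4% adenine and 46.9% and 44.9% uracil. The tails of miR-182-5p followed the 25-nt form, which had 2690 exact reads in WT and 2768 in KO beside 1923 and 1964 reads with a T and 1651 and 1861 with an A. The 24-nt form, with 8209 and 8607 exact reads, had 143 and 192 with an A. A base that equals the next base of the hairpin counts as templated, so a G added to the 24-nt form is not seen as a tail. Nor is a U added to the main tailed forms of miR-183-5p, the 23-nt RefSeq-start and 22-nt shifted forms. The exact forms 1 base longer, which end in that U, had 138 and 148 reads in WT and 155 and 179 in KO. The low uracil share of Mir183 tails is thus partly set by the definition.

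**Figure D5:**
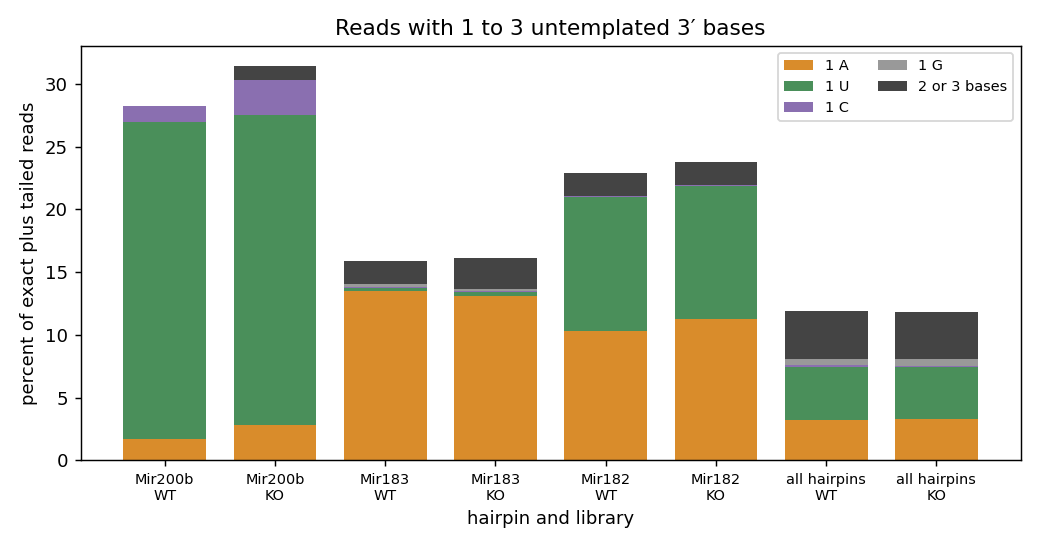
Percent of exact plus tailed reads that end in 1 to 3 untemplated 3′ bases, by the bases added, for Mir200b, Mir183, Mir182 and all hairpins in each library. Mir200b tails are mostly 1 U, Mir183 tails mostly 1 A, and Mir182 tails are split between A and U. A U added to the main tailed forms of Mir183 counts as templated and is not shown.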

How the data were processed

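Small RNA of 20 pooled testes per genotype was sequenced from TruSeq libraries as 50-base single-end reads on a MiSeq. How the adaptor was removed is not given in the sources used here. The authors deposited for each library a list of distinct sequences (11 to 48 nt) with the raw count of each, unmapped and not normalized. The build named in the submitters' processing notes, mm9, was not used here.

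Exact matches of sequences of 16 nt or longer were sought in the 2202 GENCODE M21 miRNA transcripts (GRCm38). A read inside several hairpin genes counted for each. Arms were placed with the RefSeq mature sequences, found for 8 of 8 members, and a read belonged to the arm that held at least 50% of it. Ratios carry 95% Clopper-Pearson intervals of the conditional binomial and shares 95% Wilson intervals. Fisher's exact tests were two-sided, with Benjamini-Hochberg adjustment. All 8 members were named, with marker miRNAs from fixed lists, 43 of 47 of which were in the annotation under the listed name. The members and lists were chosen with earlier results of these data known. On Poisson counts simulated around the WT counts of 563 hairpins, the interval held the true ratio in 93.6% of cases. The interval assumes such counts, so this checks the calculation only. Duplicate reads and variation between libraries were not simulated. Alternatives covered the total, the fold, low counts, length, shared reads, distinct sequences and tails. Python 3.11.15, numpy 2.4.6, scipy 1.17.1 and matplotlib 3.10.9 were used.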

Additional observations from a re-analysis of the deposited data

How the results depend on the processing

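No library could be left out, since each genotype has 1. Over 10 alternatives the KO/WT ratio of Mir200b-Mir200a-Mir429 stayed below 1 (0.793 to 0.937) and that of Mir200c-Mir141 above 1 (1.34 to 1.69), each within the interval of the reported value. The interval of the first lay below 1 under 7 of the 10, as did that of Mir200b, and held 1 with reads of all lengths as the total, with the median hairpin ratio set to 1 and with each distinct sequence counted once. The interval of Mir200c-Mir141, which holds 1 as reported, lay above 1 under 2. That of Mir183-Mir96-Mir182 stayed above 1 (1.02 to 1.28) and moved beyond its narrow interval to 1.21 with reads of all lengths as the total, to 1.20 with the median hairpin ratio set to 1, and to 1.28 with each distinct sequence counted once. Mir200b and Mir200a were below 1 under all 10, and Mir183, Mir96 and Mir141 above 1. Mir182 and Mir429 fell below 1 under 1 of the 10 each, to 0.996 and 0.945, and Mir200c under 6. The median hairpin ratio over unshared reads set to 1 was an alternative chosen after seeing the data. The number of members past the fold, 1, became 0 without Mir10b in the total, 3 at the lower fold tried and 0 at 2-fold. The share of all hairpins past 1.5-fold was 40.0%, and 30.9% with at least 1000 reads. Counted by distinct sequences, the share of miR-183-5p at the RefSeq start was 44.4% in WT and 44.8% in KO, that of miR-182-5p 54.2% in each, and in WT that of miR-141-3p 66.7% and of miR-200b-3p 75%, so the contrast between uniform and split starts is one of reads and not of distinct sequences. Reads limit Mir200c and Mir141 most, with intervals spanning 0.183 to 5.29 and 0.885 to 2.65.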
